A study of Mus musculus with 12 samples.

Results

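The genes for the A, B and C chains of complement C1q (C1qa, C1qb and C1qc), the ligand-binding Fc-gamma receptors of the mouse (Fcgr1, Fcgr2b, Fcgr3 and Fcgr4) and the signalling gamma chain that several Fc receptors share (Fcer1g) were followed in bone marrow cells enriched for CD71, the transferrin receptor, which red cell precursors carry in large amounts. A gene was taken from each probe set whose only symbol was 1 of these 8 names. Each was measured by 1 probe set, so the set held 8 of the 19935 genes with a symbol. The 12 arrays came from male C57BL/6J mice aged 10 to 12 weeks, with 3 mice and 3 arrays in each of 4 groups, and the labels number separate mice. The groups were mice with a CD70 transgene that lack the interferon-gamma gene (CD70TG*Ifng-/-), mice with the transgene and intact Ifng (CD70TG, labelled as clone F13, which the labels of the double mutant do not name), mice lacking Ifng without the transgene (Ifng-/-) and wild type mice (WT). CD70 is the ligand of CD27, a costimulatory receptor of T cells, and the transgene of this line is known to be expressed on B cells. The design sets the transgene's effect on this marrow fraction beside its dependence on interferon-gamma. Values are log2 values relative to each probe set's median over the 12 arrays, so they show differences between arrays, and levels of different genes cannot be compared.

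C1q is the recognition part of the classical complement pathway. Its chains assemble into a molecule with collagen-like stalks and globular heads that binds antibody complexes and dying cells, and most of it is made by tissue macrophages rather than by the liver. Fc-gamma receptors bind the constant part of immunoglobulin G. Fcgr1, Fcgr3 and Fcgr4 encode activating receptors that pair with the gamma chain from Fcer1g, which carries the signalling motif and is needed for their surface expression, while Fcgr2b encodes the inhibitory receptor found on B cells and myeloid cells. Fcgr1 and Fcgr4 are textbook interferon-gamma-induced genes of mouse myeloid cells. In the marrow, macrophages at the centre of erythroblast islands take up the nuclei that red cell precursors expel and clear antibody-coated cells.

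The stretch before the annotated start is shown for 4 of the genes: Fcgr4, Fcgr1 and the neighbouring C1qb and C1qc. Fcgr4 had the largest dependence on Ifng among the 8, and C1qb and C1qc moved together. The test for a transgene effect that differs by Ifng genotype passed for Fcgr4, C1qb and C1qc, but not for Fcgr1. Any tie between the motifs and these changes was not tested. Each stretch is the 250 bases before a RefSeq start in build GRCm38.p6, written 5′ to 3′ along the gene. They are chr1:171018676-171018925 on the plus strand for Fcgr4, and chr3:96293970-96294219, chr4:136886201-136886450 and chr4:136892915-136893164 on the minus strand for Fcgr1, C1qb and C1qc. Capitals mark matches, on either strand, to the GAS motif TTCNNNGAA, known from interferon-gamma-induced genes, the ISRE core of interferon regulatory factors (GAAA, any 2 bases, GAAA), and the PU.1 core GAGGAA. No marked match overlapped another.
Fcgr4: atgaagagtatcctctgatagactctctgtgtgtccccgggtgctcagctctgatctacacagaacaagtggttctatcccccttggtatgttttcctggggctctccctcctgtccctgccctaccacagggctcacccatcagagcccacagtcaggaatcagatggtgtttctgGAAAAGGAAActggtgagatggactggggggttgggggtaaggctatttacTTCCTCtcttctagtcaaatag
Fcgr1: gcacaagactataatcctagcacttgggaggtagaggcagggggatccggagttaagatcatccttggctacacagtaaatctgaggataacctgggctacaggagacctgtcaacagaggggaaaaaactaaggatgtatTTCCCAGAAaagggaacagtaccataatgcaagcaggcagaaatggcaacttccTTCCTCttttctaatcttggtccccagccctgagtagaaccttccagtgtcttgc
C1qb: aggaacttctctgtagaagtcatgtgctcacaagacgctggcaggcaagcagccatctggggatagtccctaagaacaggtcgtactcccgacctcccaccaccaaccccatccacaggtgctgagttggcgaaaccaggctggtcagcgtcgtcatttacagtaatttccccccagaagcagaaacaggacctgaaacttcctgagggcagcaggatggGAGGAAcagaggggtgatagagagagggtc
C1qc: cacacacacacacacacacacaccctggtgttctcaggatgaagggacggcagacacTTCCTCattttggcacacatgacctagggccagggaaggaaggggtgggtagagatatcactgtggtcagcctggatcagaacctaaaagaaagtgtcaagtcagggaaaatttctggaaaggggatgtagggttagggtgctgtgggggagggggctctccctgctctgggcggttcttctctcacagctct
In Fcgr4 the ISRE core lay at positions -73 to -64 and a PU.1 core at -22 to -17, where -1 is the base just before the start. In Fcgr1 the GAS motif lay at -109 to -101 and a PU.1 core at -55 to -50. C1qb and C1qc each held 1 PU.1 core and neither of the other motifs. RefSeq windows were found for 7 of the 8 genes, all except C1qa. Fcgr3 held a PU.1 core, and Fcgr2b and Fcer1g held no match. Of 32817 such windows over all genes, 7.01% held the GAS motif, 2.97% the ISRE core and 23.25% the PU.1 core, so a match describes the letters and shows no binding.

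Several features of the whole data set bear on these genes. The Ifng probe set did not separate the genotypes (-0.10 ± 0.09 in Ifng-/- against WT, SE, n = 3 per group, adjusted p = 0.632), and the deleted stretch is not named in the labels, so it is no check of them. Cd70 did not pass in either transgene comparison (0.39 ± 0.12, adjusted p = 0.135 in CD70TG*Ifng-/- against Ifng-/-, and 0.26 ± 0.12, adjusted p = 0.180 in CD70TG against WT). Red cell precursor markers differed little between the groups, with 10 measured genes whose mean value per array lay between -0.19 and 0.08 over all 12 arrays. Markers of other marrow cells moved more. The mean of 22 macrophage markers, with the 8 genes left out, was -1.04 to -0.98 over the CD70TG*Ifng-/- arrays and -0.77 to -0.44 over the CD70TG arrays. It was 0.71 to 1.20 over the Ifng-/- arrays and 0.52 to 1.00 over the WT arrays. The mean of 15 neutrophil markers was 1.71 in Ifng-/- mouse 1, -0.59 in Ifng-/- mouse 2 and 0.49 in mouse 3, a wider spread than the 0.83 to 0.96 of WT, so these Ifng-/- libraries stand apart from each other. The array has no zero, and the signal over background of a marker is not held in centred values.

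In mice with intact Ifng, the C1q chains, Fcgr1 and Fcer1g fell with the transgene, and Fcgr2b, Fcgr3 and Fcgr4 did not pass the test. C1qc, the C chain, was -1.02, -1.02 and -0.71 in CD70TG mice 1 to 3, against 0.85, 1.32 and 0.71 in WT mice. Every transgenic array lay below every WT array, and the groups did not come near each other.

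C1qc was 3.67-fold lower in CD70TG, a log2 difference of -1.88 ± 0.14 (SE, n = 3 mice per group, adjusted p = 7.17e-06), and ranked 7 by p among all 19935 genes. C1qa, the A chain, was -1.14, -0.92 and -0.50 in CD70TG, against 0.68, 1.24 and 0.50 in WT, a 3.16-fold fall (-1.66 ± 0.18, adjusted p = 1.17e-04). C1qb, the B chain, was -1.16, -1.17 and -0.51 in CD70TG, against 0.57, 1.06 and 0.51 in WT, also a 3.16-fold fall (-1.66 ± 0.19, adjusted p = 1.36e-04). CD70TG mouse 3 was the highest transgenic array for all 3 chains, and WT mouse 2 was the highest WT array. In bulk samples, fewer macrophages and less C1q RNA per macrophage cannot be told apart, and this holds for every result that follows.

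**Figure D1:**
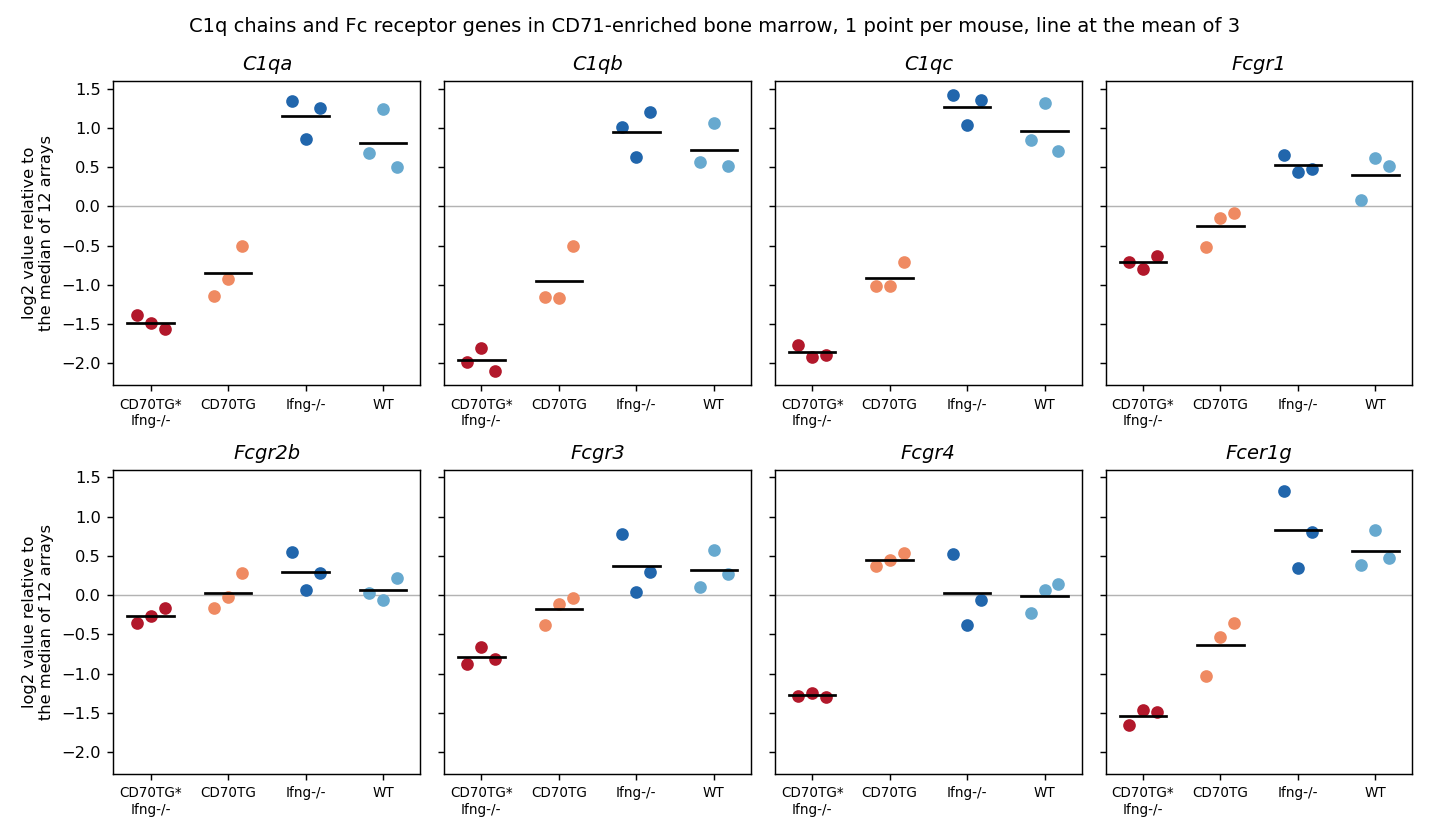
Log2 value of each gene relative to its median over the 12 arrays (vertical axis), with 1 point per mouse and a line at the mean of 3, for CD70TG*Ifng-/-, CD70TG, Ifng-/- and WT from left to right. All 6 arrays with the transgene lie below all 6 without it for the C1q chains, Fcgr1, Fcgr3 and Fcer1g, whereas for Fcgr4 the CD70TG arrays lie above the WT arrays and the CD70TG*Ifng-/- arrays lie at the bottom.

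Among the Fc receptor genes, Fcer1g, the shared gamma chain, was -1.03, -0.54 and -0.35 in CD70TG, against 0.38, 0.83 and 0.47 in WT, with no overlap. It was 2.30-fold lower (-1.20 ± 0.21, adjusted p = 0.00310). Fcgr1, the high-affinity receptor, was -0.52, -0.15 and -0.08 in CD70TG, against 0.08, 0.61 and 0.51 in WT. The nearest arrays of the 2 groups, CD70TG 3 and WT 1, were close, and the fall was 1.57-fold (-0.65 ± 0.13, adjusted p = 0.00848).

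The low-affinity receptors divided. Fcgr3, an activating receptor of macrophages, neutrophils and NK cells, was -0.38, -0.11 and -0.04 in CD70TG, against 0.10, 0.57 and 0.27 in WT, a difference of -0.49 ± 0.16 that did not pass (adjusted p = 0.0655). Fcgr4, an activating receptor of monocytes, macrophages and neutrophils, ran the other way, with 0.37, 0.45 and 0.53 in CD70TG against -0.23, 0.06 and 0.14 in WT. All 3 transgenic arrays were above all 3 WT arrays, and the difference of 0.46 ± 0.16 (95% interval 0.11 to 0.81) did not pass over all genes (adjusted p = 0.0874). Both differences passed when Ifng-/- 1 was left out of the fit (adjusted p = 0.0174 for Fcgr3 and 0.0102 for Fcgr4) and when Ifng-/- 2 was (0.0301 and 0.0269), with the same log2 values, -0.49 and 0.46, since those arrays enter only the estimate of spread. The inhibitory Fcgr2b was -0.16, -0.03 and 0.28 in CD70TG and 0.03, -0.06 and 0.22 in WT, so its groups overlapped throughout. Its difference was -0.03 ± 0.13 (95% interval -0.31 to 0.24, adjusted p = 0.898), and its sign turned without WT 3 (0.05) or CD70TG 1 (0.06). Fcgr2b and Fcgr3 are closely related in their extracellular parts, and signal shared between their probe sets was not tested.

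In all, 5 of the 8 genes fell and 0 rose in CD70TG against WT, with a median difference of -0.93 against -0.02 over all genes. Over all 19935 genes 2.70% were called lower and 8.23% higher in this comparison (10.9% in either direction). The groups did not overlap for 7 of the 8, 6 lower and 1 higher, against 13.5% of all genes set apart as lower and 17.6% as higher. Macrophage markers moved with these falls: 15 of the 22 measured markers fell and 0 rose (median -1.13), led by the haem oxygenase Hmox1 (-3.16), the mannose receptor Mrc1 (-2.93) and the adhesion molecule Vcam1 (-2.78). Markers of B cells, which carry Fcgr2b, also moved, with 11 of 13 lower and 0 higher (median -0.84). Of 15 neutrophil markers, 4 fell and 1 rose (median -1.28), with the chemokine receptor Cxcr2 (-1.45) lower and the granule protease Prtn3 (1.08) higher. Of 9 monocyte markers 0 passed in the limma fit (median -0.16). Of 12 markers of basophils, mast cells and eosinophils, cells that also use the gamma chain, 3 fell and 0 rose (median -0.21), led by the eotaxin receptor Ccr3 (-3.10). Of 11 NK and cytotoxic markers, 1 fell, Klrc1 (-0.42), and of 8 T cell markers 1 fell, Cd4 (-0.52). The part of these cell markers in the differences of the 8 genes was not tested.

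In mice lacking Ifng, all 8 genes fell with the transgene. C1qc was -1.76, -1.92 and -1.89 in CD70TG*Ifng-/- mice, against 1.42, 1.03 and 1.35 in Ifng-/- mice, an 8.71-fold fall (-3.12 ± 0.14, SE, n = 3 mice per group, adjusted p = 2.31e-08) that ranked 2 by p among all genes. C1qb was -1.98, -1.81 and -2.10 in CD70TG*Ifng-/-, against 1.01, 0.63 and 1.20 in Ifng-/-, and fell 7.51-fold (-2.91 ± 0.19, adjusted p = 4.64e-07). C1qa was -1.39, -1.49 and -1.56 in CD70TG*Ifng-/-, against 1.34, 0.86 and 1.25 in Ifng-/-, and fell 6.19-fold (-2.63 ± 0.18, adjusted p = 1.10e-06). The 3 arrays of CD70TG*Ifng-/- lay close together for each chain, with an SD of 0.08 for C1qa and C1qc and 0.14 for C1qb.

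Fcer1g was -1.65, -1.47 and -1.49 in CD70TG*Ifng-/-, against 1.32, 0.35 and 0.80 in Ifng-/-, a 5.15-fold fall (-2.36 ± 0.21, adjusted p = 7.74e-06). Fcgr1 was -0.71, -0.80 and -0.63 in CD70TG*Ifng-/-, against 0.65, 0.44 and 0.48 in Ifng-/-, a 2.36-fold fall (-1.24 ± 0.13, adjusted p = 6.40e-05). These groups were set apart without overlap, as they were for the other 6 genes. Fcgr4 was -1.28, -1.25 and -1.30 in CD70TG*Ifng-/-, against 0.52, -0.38 and -0.06 in Ifng-/-, and fell 2.47-fold (-1.30 ± 0.16, adjusted p = 2.42e-04). Its transgenic arrays had an SD of 0.02, whereas the Ifng-/- arrays were spread in the order of both their neutrophil and their macrophage markers, mouse 1 highest and mouse 2 lowest.

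Fcgr3 was -0.88, -0.66 and -0.81 in CD70TG*Ifng-/-, against 0.78, 0.04 and 0.29 in Ifng-/-, and fell 2.23-fold (-1.16 ± 0.16, adjusted p = 6.38e-04). Fcgr2b had the smallest fall, with -0.35, -0.27 and -0.17 in CD70TG*Ifng-/-, against 0.55, 0.06 and 0.28 in Ifng-/- (-0.56 ± 0.13, 1.47-fold, adjusted p = 0.0345). The call of Fcgr2b was narrow. With only the arrays of the 2 groups in the limma fit, Fcgr2b did not pass (-0.56, adjusted p = 0.0538). It did not pass without WT 1, CD70TG 2, Ifng-/- 1, Ifng-/- 3 or any 1 of the 3 CD70TG*Ifng-/- arrays, with differences of -0.60 to -0.43 and adjusted p of 0.0522 to 0.169. The other 7 kept their calls without any single array.

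All 8 were called lower, against 2.35% of all genes (2.50% in either direction and 0.156% higher), and all 8 were set apart as lower, against 7.09% of all genes (9.32% as higher). The median difference of the 8 genes was -1.83, against 0.04 over all genes. Of the macrophage markers 18 of 22 fell and 0 rose (median -1.98), led by Vcam1 (-4.21), the secreted scavenger receptor Cd5l (-3.72) and Hmox1 (-3.68). Of 9 monocyte markers 2 fell (median -0.50), and of 15 neutrophil markers 0 passed in the limma fit (median -0.93), although all 15 differences were negative. Of the 12 basophil, mast cell and eosinophil markers, 1 fell, Ccr3 (-3.45). Of 13 B cell markers 2 fell, Bank1 (-0.93) and Cd79b (-0.68), and 0 rose (median -0.33). Of 8 T cell markers 1 fell, Cd4 (-1.03), and of 11 NK and cytotoxic markers 1 fell, Klrc1 (-0.36). The part of these markers in the falls was not tested.

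**Figure D2:**
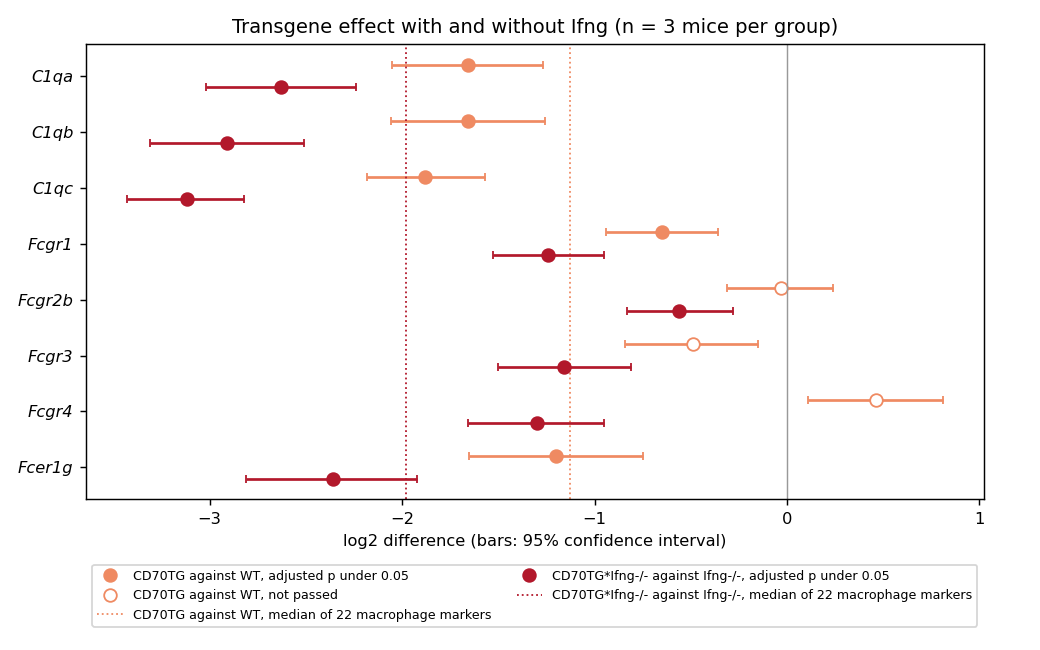
Log2 difference of each gene (horizontal axis, bars show the 95% confidence interval) in CD70TG against WT and in CD70TG*Ifng-/- against Ifng-/-, with filled points where the adjusted p was under 0.05 and dotted lines at the median of 22 macrophage markers (-1.13 and -1.98). The C1q chains lie left of the macrophage median in both comparisons, Fcgr1, Fcgr2b and Fcgr3 lie right of it, and Fcgr4 lies on opposite sides of 0.

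The difference between these transgene effects was tested as an interaction, the effect with Ifng intact minus the effect without it. All 8 estimates were positive, meaning a smaller fall, or a higher value, with Ifng intact. Of these, 3 passed, against 1.61% of all genes called in this direction (1.89% in either direction, 0.281% in the opposite one). Fcgr4 had the largest interaction of the 8, 1.77 ± 0.23 (SE, 95% interval 1.27 to 2.27, adjusted p = 0.00290), since it was 0.46 higher with the transgene when Ifng was intact and differed by -1.30 when it was not. It ranked 15 by p among all genes and passed under every alternative run.

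C1qc (1.25 ± 0.20, adjusted p = 0.00955) and C1qb (1.25 ± 0.27, adjusted p = 0.0335) passed too. C1qc did not pass after quantile normalization (0.72, adjusted p = 0.150), which forces the centred values of all arrays into 1 distribution. C1qb did not pass under that setting (0.62, adjusted p = 0.247) or without WT 1, WT 3, CD70TG 2, Ifng-/- 3, CD70TG*Ifng-/- 2 or CD70TG*Ifng-/- 3 (1.12 to 1.36, adjusted p from 0.0596 to 0.107). The interactions of Fcer1g (1.16 ± 0.29, adjusted p = 0.0583) and C1qa (0.97 ± 0.26, adjusted p = 0.0712) missed the threshold. C1qa passed without WT 2 (1.19) or Ifng-/- 2 (1.12), and Fcer1g passed without either of these (1.30 and 1.40) or without CD70TG 1 (1.36). Fcgr3 (0.66 ± 0.23, adjusted p = 0.139), Fcgr1 (0.59 ± 0.19, adjusted p = 0.120) and Fcgr2b (0.52 ± 0.18, adjusted p = 0.144) did not pass. Of the 22 macrophage markers, 6 had a positive interaction that passed (median 0.56), among them the lysosomal protease Ctss (2.08), Vcam1 (1.43) and the growth factor receptor Csf1r (0.98).

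Among transgenic mice, loss of Ifng was accompanied by lower Fcgr4, C1qb, C1qc and Fcer1g. Fcgr4 was at -1.30 to -1.25 in CD70TG*Ifng-/- and at 0.37 to 0.53 in CD70TG, a 3.31-fold fall (-1.73 ± 0.16, SE, n = 3 mice per group, adjusted p = 5.58e-05). This was the largest difference of the 8 in this comparison. C1qb was 2.02-fold lower (-1.01 ± 0.19, adjusted p = 0.0124) and C1qc 1.92-fold lower (-0.94 ± 0.14, adjusted p = 0.00258) in CD70TG*Ifng-/- than in CD70TG. Neither passed after quantile normalization (-0.49, adjusted p = 0.296, and -0.50, adjusted p = 0.228), and C1qb did not pass without CD70TG*Ifng-/- 3 (-0.95, adjusted p = 0.0886).

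Fcer1g passed narrowly (-0.90 ± 0.21, adjusted p = 0.0495). It did not pass under 15 of 22 alternatives, including a fit without any 1 of WT 1, WT 2, WT 3, CD70TG 2, CD70TG 3, Ifng-/- 3 or the CD70TG*Ifng-/- arrays (-0.93 to -0.75, adjusted p from 0.0521 to 0.196). After quantile normalization it was -0.46 (adjusted p = 0.165). C1qa (-0.63 ± 0.18, adjusted p = 0.144), Fcgr3 (-0.61 ± 0.16, adjusted p = 0.101), Fcgr1 (-0.47 ± 0.13, adjusted p = 0.137) and Fcgr2b (-0.29 ± 0.13, adjusted p = 0.419) did not pass. Fcgr3 passed without Ifng-/- 1 (adjusted p = 0.0177) or Ifng-/- 2 (0.0430) at the same -0.61, and Fcgr1 passed without CD70TG 1 (-0.60, adjusted p = 0.0419). All 8 genes had every CD70TG*Ifng-/- array below every CD70TG array, against 8.27% of all genes set apart in that direction and 9.31% in the other. By the test 4 of 8 fell, against 0.988% of all genes (1.41% in either direction, 0.426% higher).

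Markers of several cell types moved in this comparison too. Of the 22 macrophage markers, 3 fell and 0 rose (median -0.38), with Ctss (-1.63), Vcam1 (-1.11) and the pore-forming Mpeg1 (-1.20) lower. Of 9 monocyte markers 1 fell, Ly86 (-1.37, list median -0.47), and of 15 neutrophil markers 2 fell, the granule proteins Mpo (-1.50) and Prtn3 (-1.29), with a list median of -0.15. Of 13 B cell markers 2 rose, Cd79a (0.99) and Ms4a1 (0.69), and 0 fell (median 0.24). Their part in the differences of the 8 genes was not tested. The interferon-gamma response list, of which Fcgr1 and Fcgr4 are not members, had 16 of 19 measured genes lower and 0 higher (median -1.27), led by the GTPase Iigp1 (-3.59), the immunoproteasome subunit Psmb9 (-1.98) and the peptide transporter Tap1 (-2.04). In CD70TG against WT 15 of these 19 rose and 0 fell (median 0.95). Both comparisons share the CD70TG arrays. In CD70TG*Ifng-/- against Ifng-/-, where both groups lack Ifng, 5 of the 19 fell and 0 rose (median -0.24), against 2.35% of all genes called lower. Among them were Casp1 (-0.86), B2m (-0.87) and Irf8 (-0.74).

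Without the transgene, loss of Ifng was not accompanied by a call for any of the 8 genes. In the limma fit 0 of 8 passed, 1 had an unadjusted p under 0.05 (C1qc, which ranked 2741 by p among the 19935 genes), and 0.00502% of all genes were called. All 8 differences between Ifng-/- and WT were positive, from 0.04 ± 0.16 for Fcgr4 (95% interval -0.31 to 0.39, adjusted p = 0.930) to 0.34 ± 0.18 for C1qa (-0.05 to 0.74, adjusted p = 0.412). The groups overlapped for all 8 genes, whereas 9.43% of all genes were set apart as higher and 9.17% as lower. The signs of Fcgr1, Fcgr3 and Fcgr4 were not stable. They turned without WT 1 (-0.04, -0.05 and -0.07), and Fcgr3 and Fcgr4 also turned without Ifng-/- 1 (-0.15 and -0.20) and after quantile normalization (-0.01 and -0.06). The macrophage list had a median of 0.25 with 0 of 22 genes called.

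**Figure D3:**
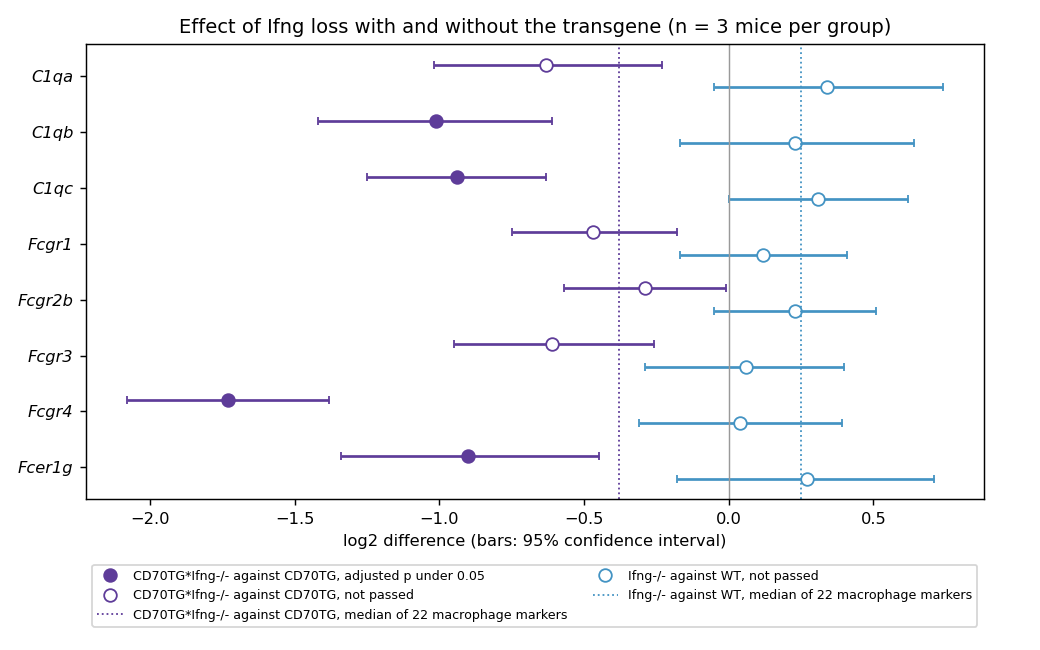
Log2 difference of each gene (horizontal axis, bars show the 95% confidence interval) in CD70TG*Ifng-/- against CD70TG and in Ifng-/- against WT, with filled points where the adjusted p was under 0.05 and dotted lines at the median of 22 macrophage markers (-0.38 and 0.25). Fcgr4, at -1.73 with the transgene and 0.04 without it, lies farthest of the 8 from the macrophage median in the comparison with the transgene.

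Set against the macrophage markers of the same array, the Fc receptors and the C1q chains took different places. The difference between a gene's value and the mean of the 22 markers is a description here and was not tested. Its 0 comes from the centring of the values, so only differences between arrays can be read. For Fcgr4 it was 1.14, 1.04 and 0.97 in CD70TG, against -0.75, -0.94 and -0.39 in WT, and -0.24, -0.28 and -0.31 in CD70TG*Ifng-/-, against -0.69, -1.09 and -0.96 in Ifng-/-. Relative to these markers Fcgr4 was therefore higher with the transgene in both Ifng genotypes, by more with Ifng intact. The marker mean itself was lower with the transgene in both genotypes, so a gene that fell less than the markers also stands higher here. Fcgr4 itself differed by -1.30 with the transgene in mice lacking Ifng, and Fcgr2b by -0.03 with Ifng intact. Relative to the markers, Fcgr2b was at 0.70 to 0.82 in CD70TG*Ifng-/- and 0.56 to 0.72 in CD70TG, but at -0.66 to -0.62 in Ifng-/- and -1.06 to -0.30 in WT. Fcgr1 also averaged higher against the markers with the transgene, at 0.29 in CD70TG*Ifng-/- mice, against -0.42 in Ifng-/- mice, and at 0.35 in CD70TG mice, against -0.28 in WT mice. Fcgr3 averaged 0.22 in CD70TG*Ifng-/- mice, against -0.57 in Ifng-/- mice, and 0.42 in CD70TG mice, against -0.37 in WT mice. Over the 12 arrays the correlation with the marker mean was 0.49 for Fcgr4, 0.72 for Fcgr2b, 0.93 for Fcgr3 and 0.96 for Fcgr1, and 0.98 to 1.00 for the C1q chains, as a description of arrays that share these group differences.

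The C1q chains shifted the other way. The mean difference of C1qc from the markers was -0.85 ± 0.12 in CD70TG*Ifng-/-, -0.32 ± 0.10 in CD70TG, 0.33 ± 0.12 in Ifng-/- and 0.28 ± 0.08 in WT (SD, n = 3 each). With the transgene C1qc thus stood lower against the markers in both Ifng genotypes. Single markers differed by -4.21 to 0.00 with the transgene in mice lacking Ifng, and by -3.16 to -0.11 with Ifng intact. Some of them thus fell more than C1qc (-3.12 and -1.88). C1qb was -0.96 ± 0.13 in CD70TG*Ifng-/-, -0.35 ± 0.26 in CD70TG, 0.01 ± 0.26 in Ifng-/- and 0.03 ± 0.04 in WT. Fcer1g was -0.53 ± 0.07 from the markers in CD70TG*Ifng-/- mice, against -0.11 ± 0.24 in Ifng-/- mice, and differed little between CD70TG (-0.04 ± 0.19) and WT (-0.12 ± 0.06).

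**Figure D4:**
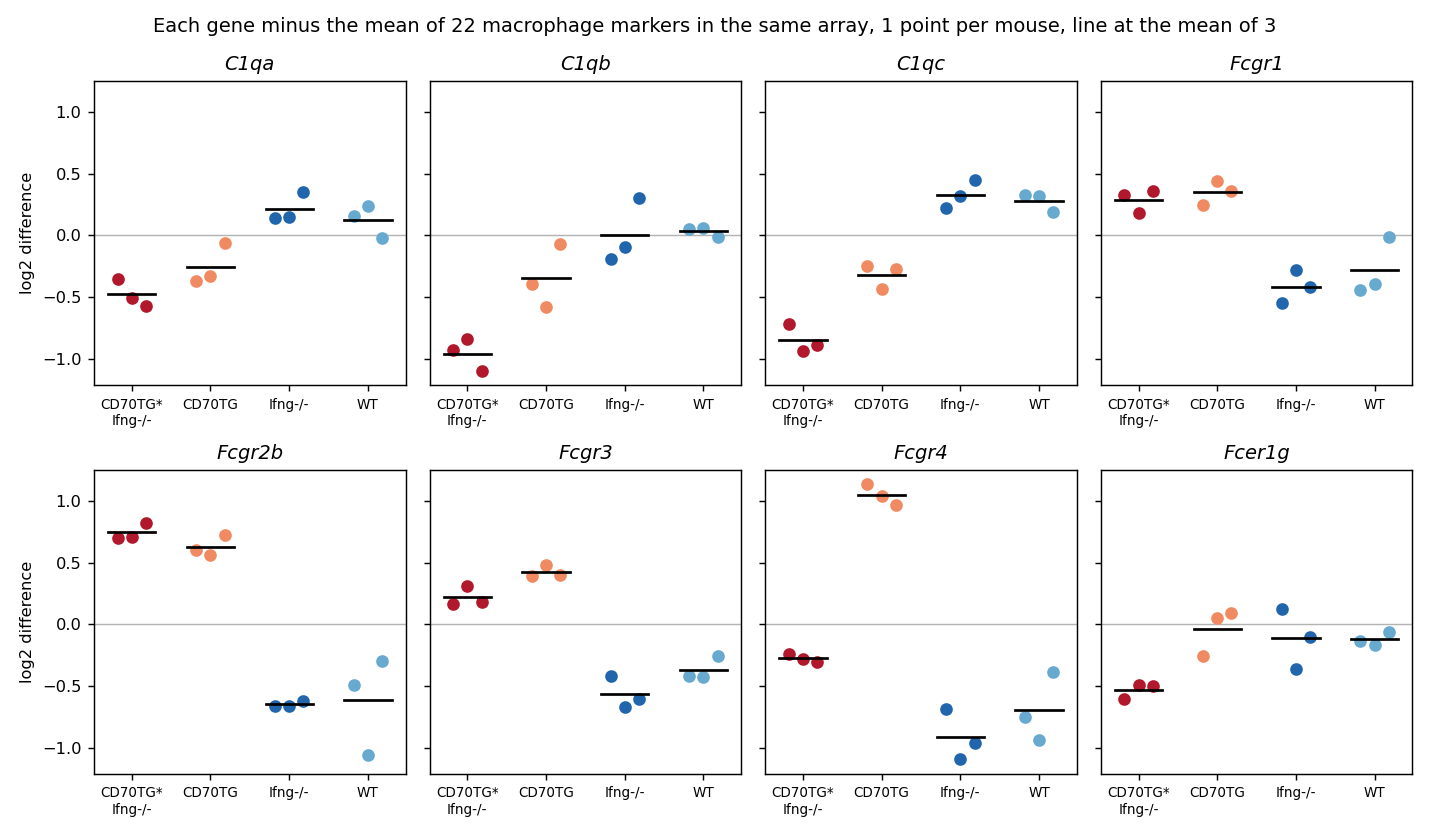
Each gene's log2 value minus the mean of 22 macrophage markers in the same array (vertical axis), with 1 point per mouse and a line at the mean of 3, for CD70TG*Ifng-/-, CD70TG, Ifng-/- and WT from left to right. Fcgr4 stands at 0.97 to 1.14 in CD70TG and below 0 in the other groups, Fcgr1, Fcgr2b and Fcgr3 are above 0 in both transgenic groups, and the C1q chains are below 0 there. The 0 comes from the centring of the values, so only differences between arrays can be read.

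Receptors were also set against each other within arrays, again as a description. Fcgr4 minus the inhibitory Fcgr2b was -0.93, -0.98 and -1.13 in CD70TG*Ifng-/- mice, against -0.03, -0.43 and -0.33 in Ifng-/- mice. It was 0.54, 0.48 and 0.25 in CD70TG mice, against -0.26, 0.12 and -0.09 in WT mice. The activating receptor was thus highest against the inhibitory one in CD70TG and lowest in CD70TG*Ifng-/-, with no overlap between those groups and the others. Fcgr4 minus Fcgr3, its relative in the same gene cluster, was 0.63 ± 0.11 in CD70TG, against -0.33 ± 0.19 in WT, and -0.49 ± 0.09 in CD70TG*Ifng-/-, against -0.34 ± 0.08 in Ifng-/- (SD, n = 3 each). In the 3 groups other than CD70TG these means lay between -0.49 and -0.33. Among the C1q chains, C1qa minus C1qb was 0.48 ± 0.14 in CD70TG*Ifng-/-, 0.10 ± 0.14 in CD70TG, 0.20 ± 0.15 in Ifng-/- and 0.09 ± 0.10 in WT, and C1qc minus C1qb ranged over the group means from 0.03 to 0.32.

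The 3 genes nearest in pattern to each of the 8 were named by Pearson correlation over the 12 arrays. These arrays form 4 groups, and differences between the groups enter each correlation, so a correlation is a description and is given with no p. C1qa was nearest to Vcam1 (0.993), the macrophage surface protein Adgre1 (0.990) and the lysosomal Cd68 (0.989). C1qb was nearest to Vcam1 (0.993), Adgre1 (0.974) and the phagocytosis checkpoint receptor Sirpa (0.974), and C1qc to Vcam1 (0.997), Cd5l (0.989) and Spic (0.987), a transcription factor of iron-recycling macrophages. Fcer1g was nearest to the lysosomal Laptm5 (0.993), Sirpa (0.988) and the lysosomal mannosidase Man2b1 (0.988), which was also among the 3 nearest to Fcgr1. Fcgr1 was nearest to the lysosomal Psap, Man2b1 and the Toll-like receptor relative Cd180 (all 0.977), and Fcgr3 to Gpr65 (0.984), Sla (0.984) and Selplg (0.982). Fcgr2b was nearest to Septin9 (0.944), Hsd17b11 (0.936) and Pld4 (0.935). Fcgr4 was nearest to Tmem229b (0.944), the interferon-induced Ifitm3 (0.943) and the inflammatory caspase Casp1 (0.939). Like Fcgr4, Ifitm3 (1.37 ± 0.27, adjusted p = 0.0233) and Casp1 (1.09 ± 0.22, adjusted p = 0.0290) had a positive interaction that passed, and Tmem229b (0.70 ± 0.22, adjusted p = 0.108) did not pass.

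The nearest measured genes on the chromosome were also followed. The C1q genes form a cluster on chromosome 4 between the measured genes Lactbl1 and Epha8, and Fcgr2b, Fcgr3 and Fcgr4 a cluster on chromosome 1 between Fcrla and Cfap126, with Fcer1g nearby between Apoa2 and Adamts4. Fcgr1 is on chromosome 3 between H2bc18 and Terc. Of these 8 neighbours, Fcrla, an Fc receptor-like gene of B cells, fell in CD70TG against WT (-0.75 ± 0.15, adjusted p = 0.00696), and it did not pass in CD70TG*Ifng-/- against Ifng-/- (-0.24 ± 0.15, adjusted p = 0.569). None of the other 7 passed in any of the 5 limma contrasts, where the lowest adjusted p was 0.130.

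Partners and relatives of the 8 genes were followed as lists. Over all genes 2.70% were called lower and 8.23% higher in CD70TG against WT. In CD70TG*Ifng-/- against Ifng-/- these shares were 2.35% and 0.156%. Of 12 other measured Fc receptors, 3 fell in CD70TG against WT, the B cell genes Fcrl1 (-0.55) and Fcrla and the IgM receptor Fcmr (-0.33), and 0 rose (median -0.10). In CD70TG*Ifng-/- against Ifng-/- only Fcrl1 of the 12 fell (-0.38, adjusted p = 0.00756). The cytosolic antibody receptor Trim21 was the only one of them with an interaction that passed (0.66 ± 0.14, adjusted p = 0.0335). Of 18 measured signalling partners of activating receptors, 4 fell in CD70TG against WT, including the adaptors Blnk (-0.84) and Tyrobp (-1.12) and the kinase Syk (-0.71). In CD70TG*Ifng-/- against Ifng-/- 7 fell, including Tyrobp (-1.59), Lcp2 (-1.12) and Nckap1l (-1.09), and 0 of the 18 rose in either. The list's medians were -0.21 with Ifng intact and -0.55 without it.

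Other complement genes did not move as a group. Of 16 measured components and regulators, the macrophage and neutrophil product properdin, from Cfp, fell with the transgene in both genotypes (-2.38 ± 0.19, adjusted p = 2.99e-06 in CD70TG*Ifng-/- against Ifng-/-, and -1.80 ± 0.19, adjusted p = 6.40e-05 in CD70TG against WT), and the other 15 did not pass in either comparison. The list medians were 0.03 and -0.02, near those over all genes (0.04 and -0.02). The C1r gene C1ra, whose product is the protease partner of C1q, is among those 15. Of 15 complement receptors and C1q-binding proteins, 5 fell without Ifng, including the C3b receptor of macrophages Vsig4 (-1.01), Lrp1 (-0.92) and the inhibitory collagen receptor Lair1 (-0.64). With Ifng intact, Lrp1 (-0.78) and Vsig4 (-0.68) fell and the mitochondrial C1qbp (0.62 ± 0.14, adjusted p = 0.0129) rose. This was 1 of 15 called higher, against 8.23% of all genes.

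Of 14 genes for the uptake of apoptotic cells, a process in which C1q takes part, 4 fell without Ifng and 6 with it, and 0 rose in either. They included the receptor kinases Axl (-2.66 in CD70TG*Ifng-/- against Ifng-/-, and -2.03 in CD70TG against WT) and Mertk (-2.02 and -1.43) and the lipid exporter Abca1 (-1.07 and -0.85). Axl and Mertk are known macrophage receptors, although neither was on the macrophage list. Cd36, also among the 14, rose in CD70TG*Ifng-/- against CD70TG (0.70 ± 0.12, adjusted p = 0.00622). It had the list's only interaction that passed (-0.84 ± 0.17, adjusted p = 0.0265), with a sign opposite to that of the 8 genes. Of 11 measured transcription factors known at C1q or Fc receptor genes, Irf1 rose in CD70TG against WT (0.77 ± 0.13, adjusted p = 0.00284), while Pparg (-1.07) and Bcl6 (-0.30) fell. In CD70TG*Ifng-/- against CD70TG Irf1 fell (-1.01 ± 0.13, adjusted p = 7.56e-04) and Bcl6 rose (0.37 ± 0.09, adjusted p = 0.0440). In CD70TG*Ifng-/- against Ifng-/- 4 of the 11 fell, including Pparg (-1.48), the oxysterol receptor Nr1h3 (-0.68) and Irf8 (-0.74), and 0 rose. Irf1 had the only interaction among the 11 that passed (0.91 ± 0.19, adjusted p = 0.0265).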

How the data were processed

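RNA from CD71-enriched bone marrow of 12 mice was measured on 1-colour whole-transcript Affymetrix arrays, 1 array per mouse. Per the submitters' processing notes, the authors obtained the deposited log2 values with RMA, whose version is not given in the sources used here. The median of each of the 28815 probe sets was 0 within 0.000001, so absolute level is lost. The log base and the direction were taken from what RMA gives. Array medians lay between -0.021 and 0.027. Precision is limited by the number of arrays. Rounding steps of the deposited numbers (tolerance 0.06 of a step) put 4356 probe sets, and none of the 8 genes, in the class whose log2 level before centring was 8 or more. Every usable value of a probe set had to fit, so a gene above 8 in only some arrays is not in this class.

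Probe sets were named from GEO's platform annotation, which can be old: 21780 had 1 symbol, 1605 several and 5430 none. Those of 1 gene were averaged (998 genes had several). Means of the 4 groups were fitted over 19935 genes with limma 3.58.1 in R 4.3.3 (8 residual and 6.23 prior degrees of freedom). Tests were two-sided, and p-values were adjusted by Benjamini-Hochberg over all genes with a threshold of 0.05. All p-values are limma's, and the script was tested on simulated data. The genes, lists and tests were chosen with earlier results of these data known. The genes named were the 8, up to 3 genes of each list with the smallest p per contrast, the 3 genes nearest in pattern to each of the 8, and the nearest measured chromosomal neighbours. Ifng and Cd70 were added as a check of the labels, but neither passed in any contrast, so they verify no label. Chromosomes and neighbours came from RefSeq GRCm38.p6.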

Additional observations from a re-analysis of the deposited data

Results flagged for a closer look

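The transgene effect with Ifng intact minus that without Ifng passed the test of the difference itself for 3 of the 8 genes. These were Fcgr4 (1.77 on the log2 scale, adjusted p = 0.00290), C1qc (1.25, adjusted p = 0.00955) and C1qb (1.25, adjusted p = 0.0335). For Fcgr4 the 2 effects also had opposite signs, -1.30 in CD70TG*Ifng-/- against Ifng-/- and 0.46 in CD70TG against WT, and the value of 0.46 did not pass on its own.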

How the results depend on the processing

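Each of 40 differences (8 genes in 5 contrasts) was recomputed under up to 22 alternatives, 872 values in all. Of these, 792 kept their direction and their side of the threshold, 35 no longer passed, 36 newly passed and 9 changed sign. The sign changes were Fcgr2b in CD70TG against WT (0.05 and 0.06), and in Ifng-/- against WT Fcgr1 (-0.04), Fcgr3 (-0.01, -0.05 and -0.15) and Fcgr4 (-0.06, -0.07 and -0.20), none of which passed in any setting. With 1 array left out these differences ranged from -0.16 to 0.06, -0.04 to 0.23, -0.15 to 0.22 and -0.20 to 0.24. In CD70TG*Ifng-/- against CD70TG, 4 genes passed in the reported fit, 1 after quantile normalization, 7 with array weights and 2 to 5 with 1 array left out. For the interaction, 3 passed in the reported fit, 1 after quantile normalization, 5 without the least variable genes, 7 with array weights and 2 to 5 with 1 array left out. With 1 array left out, 5 to 7 passed in CD70TG against WT, 7 or 8 in CD70TG*Ifng-/- against Ifng-/- and 0 in Ifng-/- against WT. Same-numbered arrays of different groups deviated with correlations of -0.40 to 0.31, so the numbers were not taken to pair mice. With the replicate number as a block the counts were 5, 8, 0, 3 and 2 in the order CD70TG against WT, CD70TG*Ifng-/- against Ifng-/-, Ifng-/- against WT, CD70TG*Ifng-/- against CD70TG and interaction. The block ended the calls of Fcer1g in CD70TG*Ifng-/- against CD70TG (adjusted p = 0.109) and of C1qb in the interaction (adjusted p = 0.0691), and gave 128 interaction calls over all genes, against 377. Without CD70TG 3 and Ifng-/- 2, an alternative chosen after seeing the data, the counts were 6, 8, 0, 3 and 4. Counts over all genes rose with array weights in each contrast: 5337 against 2179, 1439 against 499, 7 against 1, 3519 against 282 and 2040 against 377, in the same order of contrasts. With 1 array left out they were 853 to 2721, 297 to 868, 1 to 42, 136 to 365 and 82 to 711. The cause of these shifts was not tested. Filters on dim probe sets could not be run on centred values.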
